A study of Mus musculus with 24 samples.

Results

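The genes described here are named for splicing factors and heterogeneous nuclear ribonucleoproteins (hnRNPs). They were chosen by name, as symbols beginning with Srsf and a digit, Snrp, Sf3a or Sf3b and a digit, or Hnrnp, in all deposited tables. The rule found 50 of 13290 listed genes. Grouped by name, these were 20 hnRNP, 11 Sm and U snRNP, 10 SR protein and 9 SF3A and SF3B genes. RNA came from BV2, an immortalised mouse microglial line, and from extracellular vesicles (EVs) released by BV2 cells. Cultures were untreated controls or received lipopolysaccharide (LPS, 100 ng/mL), IL-10 (50 ng/mL) or TGF-β (TGFB, 50 ng/mL) for 72 h. Each of the 4 conditions had 3 cell and 3 EV libraries, which made 24 libraries in 8 groups, all from this single line.

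Splicing removes introns from pre-mRNA in the spliceosome, whose U snRNPs each hold a small nuclear RNA, in most of them within a ring of Sm proteins. SF3A and SF3B belong to the U2 snRNP and hold it at the branch point. SR proteins bind exonic enhancers and mostly favour the use of nearby splice sites, whereas hnRNPs coat nascent transcripts and often oppose it. In macrophages and microglia these proteins act on the processing, export and decay of inflammatory transcripts, and some hnRNPs also take part in loading RNA into vesicles.

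Depth was 26.14 to 42.13 M counts per library for cells and 3.019 to 17.98 M for EVs. Levels are CPM (counts per M counts), scaled by TMM over all 24 libraries. A count of 0 allowed up to 0.0712 to 0.115 CPM in cells and 0.167 to 0.994 CPM in EVs (3 counts per library, counting error only). All 50 genes were detected in every cell library and passed the filter on low counts in every comparison. Of 12 microglia and macrophage markers, 11 were listed and summed to 4180 to 7620 CPM in cells. Cx3cr1 was close to 0 in cells except after TGFB (8.01 CPM), and the 3 listed neuron markers and 1 fibroblast marker summed to at most 0.259 CPM there. The 4 listed of 7 astrocyte markers summed to 6.19 to 12.7 CPM in cells. In EVs the microglia and macrophage list summed to 1620 to 5220 CPM, the astrocyte list to 0 to 203 CPM, the neuron list to 0 to 92.7 CPM, the 1 listed oligodendrocyte marker to 0 to 59.3 CPM and the fibroblast marker to 0 to 32.6 CPM. The part of these markers in the EV results was not tested. The median coefficient of variation of the 50 genes between libraries of a group was 5.56 to 9.27% in cells and 28 to 65.2% in EVs. Whether the 3 libraries of a group came from separate cultures is not in the labels, and p-values here measure only their spread, which may be technical. In such bulk RNA, fewer expressing cells and less RNA per cell cannot be told apart. LPS EVs stood apart from the other EVs: 0.4891 to 4.417% of listed genes had no count there, against 19.58 to 50% in the other EV libraries.

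Per kilobase of annotated exon, Snrpb, a protein of the Sm ring, had the highest level of the 50 genes in control cells (185 CPM per kb). Hnrnpk, which binds C-rich RNA, followed with 103 CPM per kb, and the SF3B subunit Sf3b4 with 75.4 CPM per kb. The lowest levels per kilobase were those of Hnrnpa0 (1.36) and Snrpc (2.41). The length used was that of all annotated exons of a gene merged, 6.52 kb for Snrpc. The transcripts expressed may be shorter, and the part of this in the order was not tested. Together the 50 genes took 0.568% ± 0.0142 (SD, n = 3) of the counts of control cells, 0.693% ± 0.025 after LPS, 0.495% ± 0.0237 after IL-10 and 0.617% ± 0.0473 after TGFB. The LPS libraries were all above the control libraries in this share and the IL-10 libraries all below them. The 10 most abundant genes of a library took 19.57 to 20.77% of counts after IL-10 and 14.43 to 15.08% in controls, and their part in the lower share was not tested.

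**Figure D1:**
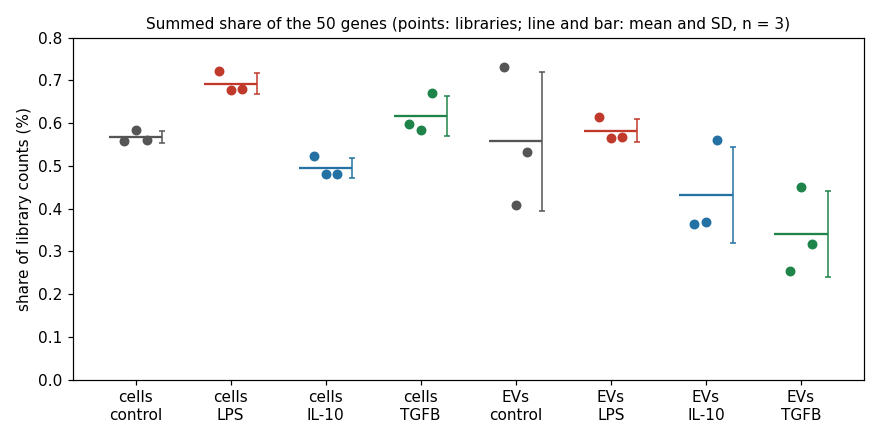
Share of library counts (%) taken by the 50 genes in each of the 24 libraries. Points are libraries and line and bar the mean and SD of 3. Cell groups are narrow, with LPS highest at 0.693% and IL-10 lowest at 0.495%, whereas control EVs span 0.4089 to 0.732%, IL-10 EVs 0.3649 to 0.5611% and TGFB EVs 0.2536 to 0.4512%, and LPS EVs stay within 0.566 to 0.6146%.

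The first comparison asked how LPS changed these transcripts in the cells. Hnrnpa1, several Sm proteins and the SR proteins Srsf7, Srsf3 and Srsf1 rose in LPS-treated cells. Of the 50 genes, 28 rose and 3 fell (edgeR, adjusted p under 0.05), where 28.6% of all 11951 tested genes rose and 27.5% fell. The median log2 fold change was 0.22 for the 50 genes and 0.01 for all genes tested. Rises were found in 9 of 11 Sm and U snRNP genes, 7 of 10 SR proteins, 10 of 20 hnRNPs and 2 of 9 SF3A and SF3B genes, the last a share of 22.2%, below that of all genes. The genes that fell were Srsf5, Hnrnpc and Hnrnpul2.

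**Figure D2:**
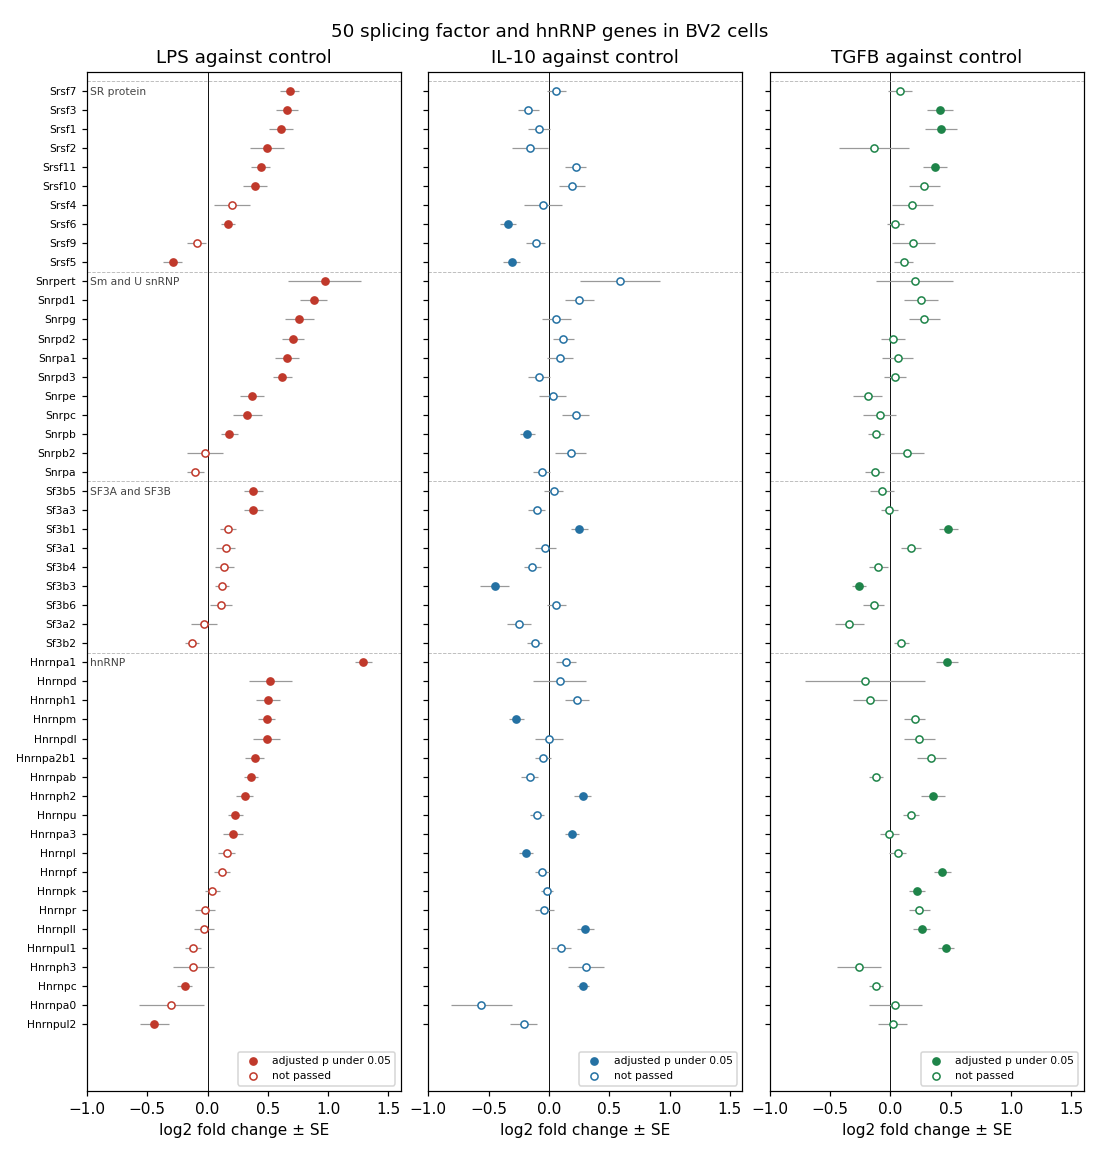
Log2 fold change ± SE of each of the 50 genes against control in cells, for LPS, IL-10 and TGFB, with genes grouped by role and ordered by the LPS value. Filled points passed the adjusted p of 0.05. LPS has 28 filled points above 0 and 3 below, IL-10 has 5 and 6, and TGFB has 10 and 1.

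Sm proteins form the ring around most small nuclear RNAs of the spliceosome. Snrpd1, one of them, stood at 21.5, 25 and 19.3 CPM in control cells and at 39.1, 42.7 and 39.1 CPM after LPS. The groups did not overlap, and the change was 1.85-fold (log2 0.88, SE 0.11, edgeR adjusted p = 1.17e-06). Snrpg, another member of the ring, had 21.7, 22.6 and 16.9 CPM in controls and 31.1, 37.4 and 34.6 CPM after LPS. Its LPS libraries were all above the controls, with a 1.69-fold rise (log2 0.76, SE 0.12, edgeR adjusted p = 2.39e-05). Snrpd2 rose 1.63-fold and Snrpd3 1.54-fold, and Snrpe and Snrpb rose by log2 0.37 and 0.18. Among the proteins specific to one snRNP, Snrpa1 of the U2 snRNP rose 1.58-fold and Snrpc of the U1 snRNP rose by log2 0.33. Snrpa of the U1 snRNP (log2 -0.10) and Snrpb2 of the U2 snRNP (log2 -0.02) did not pass the test. The weakly expressed Snrpert had 2.36, 1.51 and 1.47 CPM in controls and 2.42, 4.69 and 3.31 CPM after LPS. It passed the test (log2 0.97, SE 0.30, edgeR adjusted p = 0.011), but not without the second LPS library. Snrpert had 0.279 kb of annotated exon and no transcript annotated as protein-coding, and was not searched for near-identical copies. Snrpe had 1 such copy among the listed genes. Whether reads of one gene were counted for the other was not tested, and both are among the 11. The median log2 fold change over the 11 Sm and U snRNP genes was 0.62.

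SR proteins bind exonic enhancers through an RNA recognition motif and carry a tail rich in arginine and serine. Srsf7 stood at 69.5, 76 and 65.4 CPM in control cells and at 108, 109 and 118 CPM after LPS. The groups were well apart, and it rose 1.6-fold (log2 0.68, SE 0.08, edgeR adjusted p = 3.97e-07). Srsf3, which also takes part in mRNA export, had 94.2, 104 and 84.2 CPM in controls and 161, 136 and 146 CPM after LPS. It rose 1.58-fold without overlap (log2 0.66, SE 0.09, edgeR adjusted p = 3.36e-06). Srsf1, the founding SR protein, went from 51.9, 61.7 and 55.2 CPM to 93.3, 71.2 and 90.3 CPM. Its rise was 1.52-fold, again with no overlap (log2 0.61, SE 0.10, edgeR adjusted p = 6.88e-05). Srsf2, Srsf11, Srsf10 and Srsf6 rose by log2 0.49, 0.44, 0.39 and 0.17. Srsf5 moved the other way, from 82.8, 81 and 85.2 CPM to 74, 64.8 and 62.8 CPM. Every LPS library was below every control (log2 -0.29, SE 0.08, edgeR adjusted p = 0.00449). Srsf4 (log2 0.20) and Srsf9 (log2 -0.09) did not pass the test.

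The SF3A and SF3B genes gave the fewest calls in LPS cells. Sf3a3 of SF3A went from 79.5, 78.5 and 81.3 CPM to 94.5, 114 and 102 CPM. The groups did not overlap (1.30-fold, log2 0.38, SE 0.08, edgeR adjusted p = 0.000263). Sf3b5 of SF3B, at 63.6, 67.5 and 55 CPM in controls and 77.6, 81 and 82.4 CPM after LPS, rose 1.31-fold (edgeR adjusted p = 0.000668). The other 7 did not pass the test, and the median over the 9 genes was log2 0.14.

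Among hnRNPs, LPS gave the largest rise of the 50 genes in Hnrnpa1, a shuttling protein known for promoting exon skipping. Hnrnpa1 stood at 94, 106 and 97.6 CPM in control cells and at 254, 230 and 239 CPM after LPS. The LPS libraries were far above every control, and the change was 2.45-fold (241 ± 12.3 against 99.3 ± 6.33 CPM, log2 1.29, SE 0.07, edgeR adjusted p = 1.68e-11). Hnrnph1, which binds G-runs, had 37.6, 37 and 34.5 CPM in controls and 58.3, 48 and 47.1 CPM after LPS (log2 0.50, SE 0.10, edgeR adjusted p = 0.000266). Hnrnpdl went from 15.6, 17.2 and 15.2 CPM to 23.2, 22 and 21.9 CPM (log2 0.49, SE 0.11, edgeR adjusted p = 0.00109). Neither gene had overlapping groups. Hnrnpm (log2 0.49), Hnrnpa2b1 (0.39), Hnrnpab (0.36), Hnrnph2 (0.31), Hnrnpu (0.23) and Hnrnpa3 (0.21) also rose. Hnrnpd, which binds AU-rich elements, passed the test (log2 0.52, SE 0.18, edgeR adjusted p = 0.0302), though its LPS libraries spread from 29.9 to 54.4 CPM and the groups overlapped. It did not pass when any single library but the third LPS library was left out, or with all 12 cell libraries in the fit.

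The hnRNPs that fell after LPS were Hnrnpul2 and Hnrnpc. Hnrnpul2, a relative of Hnrnpu, went from 24.6, 20.6 and 26.3 CPM to 18.4, 17.1 and 16.7 CPM. All LPS libraries were below the controls (log2 -0.44, SE 0.12, edgeR adjusted p = 0.00385). Hnrnpc, which binds U-rich tracts in nascent transcripts, fell from 271, 262 and 269 CPM to 232, 232 and 235 CPM. The groups did not overlap (log2 -0.19, SE 0.06, edgeR adjusted p = 0.0125), but the call was lost without the first control library and with scaling by library size. The abundant Hnrnpk was at 674, 665 and 667 CPM in controls and at 714, 673 and 657 CPM after LPS, and did not pass the test (log2 0.04).

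**Figure D3:**
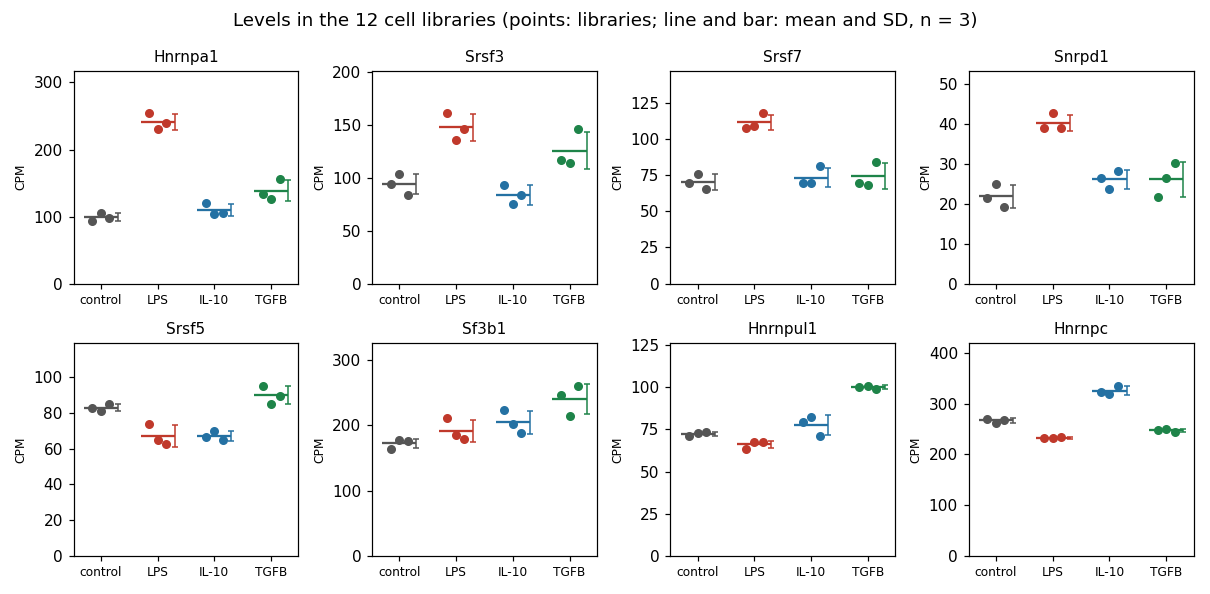
Levels (CPM, axes from 0) of 8 of the genes in the 12 cell libraries. Points are libraries, and line and bar are the mean and SD of 3. Hnrnpa1 is at 230 to 254 CPM after LPS against 94 to 106 CPM in controls, Hnrnpc is highest after IL-10, and Hnrnpul1 and Sf3b1 are highest after TGFB.

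Of the 31 calls in LPS cells, 23 held in every alternative setting and 0 changed sign. Besides Snrpert, Hnrnpd and Hnrnpc, the calls lost in some setting were those of Srsf6, Snrpb, Snrpc, Hnrnpa3 and Srsf2. The Srsf6 call was lost in 6 settings, the fit with all 12 cell libraries and the removal of any single library except the first LPS library. The Snrpb call was lost without the first or the third control library and without the second or the third LPS library. The Snrpc call was lost without the first or the second control library and without the third LPS library. The Hnrnpa3 call was lost without the first or the third control library and without the first LPS library. The Srsf2 call was lost in the fit with all 12 cell libraries. The libraries cannot show which copy a read came from where copies are alike. In GENCODE M21, 25 of 49 genes searched had a transcript elsewhere in the genome that matched at 95% or more over at least 200 bases, and 11 had such a copy among the listed genes. For Hnrnpa1 there were 9 such copies, 1 of them listed, and how the authors counted such reads is not known here. Snrpe had 1 such copy, which was listed, and Snrpert was not searched. The library kit does not mark the strand, and 7 genes shared over 10% of their exon bases with another gene: Srsf4, Hnrnpab, Hnrnpf, Srsf2, Sf3a2, Hnrnpm and Snrpa.

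Promoter sequences are shown for the genes that rose most in LPS cells among hnRNPs and SR proteins and for the SR protein that fell. RefSeq (GRCm38.p6) gave a promoter for 43 of the 50 genes, and the 250 bases before the start site were searched on both strands. The motifs were the CCAAT box CCAAT, the GC box GGGCGG, the ETS core CCGGAAG, the E-box CACGTG and the TATA element TATAAA, and GC box and ETS matches can touch. In the lines below, read 5′ to 3′ on the strand of the gene, capitals mark these matches in either orientation. The positions are chr15:103240147-103240396 on the plus strand for Hnrnpa1, chr17:29032410-29032659 on the plus strand for Srsf3, chr17:80207306-80207555 on the minus strand for Srsf7 and chr12:80945249-80945498 on the plus strand for Srsf5.
Hnrnpa1: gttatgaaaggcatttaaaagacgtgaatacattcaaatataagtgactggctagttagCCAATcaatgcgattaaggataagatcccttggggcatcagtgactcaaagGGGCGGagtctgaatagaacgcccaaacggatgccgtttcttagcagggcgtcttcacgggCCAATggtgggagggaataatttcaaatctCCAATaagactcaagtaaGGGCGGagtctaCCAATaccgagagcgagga
Srsf3: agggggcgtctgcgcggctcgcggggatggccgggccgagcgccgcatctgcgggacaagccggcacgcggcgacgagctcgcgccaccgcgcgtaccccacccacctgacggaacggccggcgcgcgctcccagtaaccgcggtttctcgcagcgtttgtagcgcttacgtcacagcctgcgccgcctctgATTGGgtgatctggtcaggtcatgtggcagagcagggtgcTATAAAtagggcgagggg
Srsf7: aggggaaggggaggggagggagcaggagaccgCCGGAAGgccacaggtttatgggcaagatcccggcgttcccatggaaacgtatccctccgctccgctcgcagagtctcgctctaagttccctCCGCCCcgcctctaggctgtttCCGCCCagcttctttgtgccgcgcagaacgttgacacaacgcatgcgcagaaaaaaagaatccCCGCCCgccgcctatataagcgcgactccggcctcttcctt
Srsf5: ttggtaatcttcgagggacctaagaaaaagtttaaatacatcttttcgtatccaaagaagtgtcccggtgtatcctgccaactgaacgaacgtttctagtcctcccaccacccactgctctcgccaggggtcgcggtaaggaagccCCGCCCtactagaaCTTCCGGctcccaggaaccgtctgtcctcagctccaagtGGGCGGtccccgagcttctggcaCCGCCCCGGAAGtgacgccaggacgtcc

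The Hnrnpa1 promoter held 4 CCAAT boxes and 2 GC boxes. Of the 43 promoters, 4 held at least 4 CCAAT boxes (Hnrnpa1, Hnrnpc, Hnrnpl and Hnrnpr), as did 0.918% of all 27025 mouse promoters in the table. A CCAAT box was present in 44.2% of the 43 and 34.5% of all promoters. The GC box was present in 72.1% against 32.9%, and the ETS core in 34.9% against 7.05%. The E-box (6.98% against 6.05%) and the TATA element (11.6% against 13%) were about as frequent as in all promoters. Median GC content was 60.8% in the 43 and 52% in all promoters. Of the genes that rose after LPS and the rest, 17 of 24 and 14 of 19 held a GC box, 11 of 24 and 8 of 19 a CCAAT box, and 6 of 24 and 9 of 19 an ETS core. These matches describe letters and not binding.

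Other genes of the splicing pathway came from lists of 142 genes with the 50 removed. Of 140 tested in LPS cells, 64 rose and 16 fell, beside 28.6% and 27.5% of all genes, with a median log2 fold change of 0.19 against 0.01 over all genes. Among other snRNP proteins 18 of 25 rose, such as Prpf3 of the U4/U6 snRNP (65.8 to 69 CPM in controls, 102 to 108 CPM after LPS). One list joined Sm protein methylation and the SMN complex, which loads Sm rings onto small nuclear RNAs. Of its 11 tested genes 7 rose, with Gemin6 up 2.09-fold. U2af1, which recognises the 3′ splice site, rose 1.77-fold. The splicing regulator Rbfox2 rose 3.99-fold, from 5.51 to 6.86 CPM in controls to 23.3 to 25.9 CPM. In the list of kinases and importers of SR proteins 3 of 8 fell, with a median log2 fold change of -0.11. Srpk1, which phosphorylates SR proteins, fell from 186 to 195 CPM to 75.1 to 80.2 CPM (log2 -1.27, SE 0.07, edgeR adjusted p = 6.19e-12), and Clk2 fell by 0.54 on the log2 scale.

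IL-10 gave small changes in both directions. Of the 50 genes, 5 rose and 6 fell, where 12.3% of 11790 tested genes rose and 10.9% fell (edgeR, adjusted p under 0.05). The genes that rose were Hnrnpll, Hnrnph2, Hnrnpc, Sf3b1 and Hnrnpa3, and those that fell were Srsf6, Srsf5, Hnrnpm, Sf3b3, Hnrnpl and Snrpb. The median log2 fold change was -0.03, against 0.00 over all genes tested. These counts depended on the scaling: by library size, which moved the median of all genes by log2 -0.16, 0 of the 50 rose and 20 fell. In that scaling 776 of all 11790 tested genes rose and 3163 fell. Thus 19.7% of all called genes were higher, against 52.9% with TMM. Only the falls of Srsf6, Srsf5 and Hnrnpm held in every setting tried. Without the first control library the counts were 3 higher and 3 lower, and 3 were lower without the second.

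Srsf6 stood at 120, 123 and 126 CPM in controls and at 99.6, 91.8 and 101 CPM after IL-10. All IL-10 libraries were below the controls (1.26-fold, log2 -0.34, SE 0.07, edgeR adjusted p = 0.00102). Srsf5 was at 66.4, 70 and 64.8 CPM after IL-10, again below the controls (log2 -0.31, SE 0.07, edgeR adjusted p = 0.00383). Hnrnpm, a regulator of alternative exons, went from 128, 136 and 136 CPM to 115, 108 and 109 CPM (log2 -0.27, SE 0.06, edgeR adjusted p = 0.0043). Snrpb and Hnrnpl fell by 0.18 and 0.19 on the log2 scale without overlap between groups. Sf3b3, a scaffold subunit of SF3B, went from 290, 286 and 294 CPM to 237, 232 and 168 CPM (log2 -0.45, SE 0.12, edgeR adjusted p = 0.029). The third IL-10 library was far below the other two, and the call was lost when any control library was left out.

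The rises after IL-10, 10% of the 50 genes against 12.3% of all genes tested, were in 4 of 20 hnRNPs and in Sf3b1. All were lost with scaling by library size. Hnrnpll, known for regulating CD45 exons in lymphocytes, went from 83, 89.3 and 87.6 CPM to 112, 100 and 108 CPM (log2 0.30, SE 0.07, edgeR adjusted p = 0.00416). Hnrnpc went from 271, 262 and 269 CPM to 323, 319 and 336 CPM (log2 0.28, SE 0.05, edgeR adjusted p = 0.00082). Both were apart from the controls in all libraries. Hnrnph2 went from 119, 119 and 113 CPM to 150, 130 and 147 CPM (log2 0.28, SE 0.07, edgeR adjusted p = 0.00606). Sf3b1, the SF3B subunit that contacts the branch point, went from 164, 177 and 176 CPM to 223, 202 and 189 CPM (log2 0.25, SE 0.07, edgeR adjusted p = 0.0136), a call lost without the first control or the first IL-10 library. Hnrnpa1 was at 120, 104 and 105 CPM, overlapped the controls and did not pass the test (log2 0.14). In the wider pathway 7 of 140 genes rose and 23 fell, beside 12.3% and 10.9% of all genes, with a median log2 fold change of -0.02. By library size 3 rose and 50 fell, where 776 of all 11790 tested genes rose and 3163 fell. Srpk1 fell to 119 to 129 CPM (log2 -0.63, edgeR adjusted p = 5.58e-07), the apoptotic chromatin and splicing factor Acin1 fell from 26.4 to 29.7 CPM to 12.7 to 15.8 CPM, and the SR protein kinase Clk4 rose 1.80-fold.

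The genes called after TGFB changed by at most 1.39-fold, with 20% of the 50 higher and 2% lower. Of the 50 genes, 10 rose and 1 fell, where 14.5% of 11798 tested genes rose and 15.4% fell (edgeR, adjusted p under 0.05). Those that rose were 6 of 20 hnRNPs (Hnrnpul1, Hnrnpf, Hnrnpa1, Hnrnpll, Hnrnph2 and Hnrnpk), 3 of 10 SR proteins (Srsf1, Srsf3 and Srsf11) and Sf3b1. The gene that fell was Sf3b3. Among the 11 Sm and U snRNP genes the lowest edgeR adjusted p was 0.12, and their median log2 fold change was 0.04. The median log2 fold change was 0.08, against 0.01 over all genes tested. Without the first or the third control library the 10 rises became 5, and the calls that held in every setting were those of Sf3b1, Hnrnpul1, Hnrnpf and Hnrnpa1.

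Hnrnpul1, a relative of Hnrnpu, stood at 70.9, 72.8 and 73.5 CPM in controls and at 100, 101 and 98.7 CPM after TGFB. The groups were narrow and apart (1.38-fold, log2 0.46, SE 0.07, edgeR adjusted p = 0.000234). Sf3b1 was at 246, 215 and 261 CPM after TGFB, all above the controls (1.39-fold, log2 0.48, SE 0.08, edgeR adjusted p = 0.000512). Hnrnpf, which binds G-runs as Hnrnph1 does, went from 182, 200 and 187 CPM to 252, 242 and 277 CPM (log2 0.43, SE 0.07, edgeR adjusted p = 0.000515). Hnrnpa1 was at 133, 126 and 156 CPM, above all controls (log2 0.47, SE 0.09, edgeR adjusted p = 0.00131). Among SR proteins Srsf3 was at 117, 114 and 146 CPM (log2 0.41, SE 0.11, edgeR adjusted p = 0.0119) and Srsf1 at 66.4, 66.6 and 93.3 CPM (log2 0.42, SE 0.13, edgeR adjusted p = 0.0363). In both the third TGFB library was the highest, and neither group overlapped its controls. The Srsf1 call was lost without that library, without the first or the third control library and with scaling by library size. The Srsf3 call was lost without the third control library. The rises of Srsf11, Hnrnph2, Hnrnpll and Hnrnpk were log2 0.37, 0.35, 0.26 and 0.22. Sf3b3 went from 290, 286 and 294 CPM to 228, 251 and 249 CPM (log2 -0.26, SE 0.06, edgeR adjusted p = 0.00671), a call lost without the first TGFB library. In the wider pathway 13 of 140 genes rose and 9 fell, both below the shares of all genes, 14.5% and 15.4%. The RNA-binding regulator Qk rose 2.61-fold, from 18.5 to 18.9 CPM to 46.7 to 51.4 CPM, and Srpk1 fell to 102 to 124 CPM (log2 -0.73, edgeR adjusted p = 1.39e-05).

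Because these comparisons share their control libraries, the treatments were also set against each other directly. LPS against IL-10 gave 23 of the 50 genes higher with LPS and 4 lower, where 27% of 12148 tested genes were higher and 26.3% lower (edgeR, adjusted p under 0.05). By library size, which moved the median of all genes by log2 0.22, these counts were 38 and 1, and Hnrnpul1 changed sign. In that scaling 4897 of the 12148 tested genes were higher and 1943 lower. Higher with LPS were Hnrnpa1 (2.21-fold), Srsf3 (1.78-fold), Hnrnpm (log2 0.76), Snrpd3 (log2 0.70) and Snrpg (log2 0.70). Lower with LPS were Hnrnpc (log2 -0.47), Hnrnph3 (log2 -0.43), Hnrnpll (log2 -0.33) and Hnrnpul1 (log2 -0.22). The Hnrnph3 call was lost in 5 settings, the Hnrnpul1 call in 4 and the Hnrnpll call in 1. Scaling by library size was among them in each, and the Hnrnpc call was lost in 0.

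LPS against TGFB gave 20 genes higher with LPS and 9 lower, where 29.3% of tested genes were higher and 27.8% lower (edgeR, adjusted p under 0.05). Of the Sm and U snRNP genes 9 of 11 were higher with LPS, with Snrpd2 at log2 0.69. Among hnRNPs 5 were higher and 6 lower: Hnrnpa1 was higher with LPS by log2 0.82, and Hnrnpul1 (log2 -0.58), Hnrnpul2 (-0.46), Hnrnpf (-0.31), Hnrnpll (-0.29), Hnrnpr (-0.26) and Hnrnpk (-0.18) were lower. Of 9 SF3A and SF3B genes 5 were higher and 2 lower with LPS. Of 10 SR proteins Srsf7 was higher with LPS (log2 0.60) and Srsf5 lower (log2 -0.41). Srsf3 and Srsf1, which passed against control in both treatments, did not pass here. Of the 29 calls, 21 held in every setting. The others were Snrpert (lost in 6 settings), Hnrnpk and Sf3b4 (4 each), Sf3b6, Hnrnpa3 and Hnrnpr (3 each), and Snrpc and Hnrnpm (2 each).

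IL-10 against TGFB gave 3 genes higher with IL-10 (Hnrnpc, Hnrnph1 and Hnrnph3, the last by log2 0.57) and 15 lower, where 20% of tested genes were higher and 18.3% lower (edgeR, adjusted p under 0.05). By library size, which moved the median of all genes by log2 -0.15, these counts were 1 and 27. In that scaling 1657 of 12148 tested genes were higher and 3499 lower. Of the 18 calls, 13 held in every setting. The Hnrnph1 call was lost in 5 settings and the Hnrnph3 call in 4, scaling by library size among them in both. The Hnrnpc call was lost in 0. Among the genes lower with IL-10 were Srsf3 (log2 -0.58), Srsf1 (log2 -0.50), Hnrnpf (log2 -0.49) and Hnrnpm (log2 -0.48), and Hnrnpc was higher with IL-10 by log2 0.40. The level of Hnrnpc thus ran from IL-10 (319 to 336 CPM) over control (262 to 271) and TGFB (245 to 250) to LPS (232 to 235). The steps from control to TGFB and from TGFB to LPS did not pass the test.

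Across the 12 cell libraries, which fall into the 4 treatment groups, similarity of log2 level was described for Srsf3, Hnrnpa1, Snrpd1 and Sf3b1. For each, the most similar of the other genes among the 50 is given. Srsf3 was most like Srsf1 (Pearson r = 0.96, n = 12 libraries) and Hnrnpa1 most like Snrpd3 (r = 0.948). Snrpd1 was most like Snrpa1 (r = 0.944) and Sf3b1 most like Hnrnpk (r = 0.817). These libraries share their treatments, so the values carry the group differences given above.

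The next comparison set control EVs beside control cells. The order of the 50 genes by level was largely kept (Pearson r = 0.84 and Spearman rho = 0.87 over 50 genes on the log2 scale, which share libraries and depth). Hnrnpa1 and Hnrnpdl were higher in EVs and 0 genes were lower, where 1.23% of 11427 tested genes were higher and 9.43% lower (edgeR, adjusted p under 0.05). For lower levels, 2 genes had an unadjusted p under 0.05 and DESeq2 called 2. The median log2 difference was 0.19 for the 50 genes and -0.24 for all genes tested. Among the 50 genes 11 had EV libraries all above the cell libraries and 9 all below, where this held for 10.6% and 30.7% of all genes tested.

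**Figure D4:**
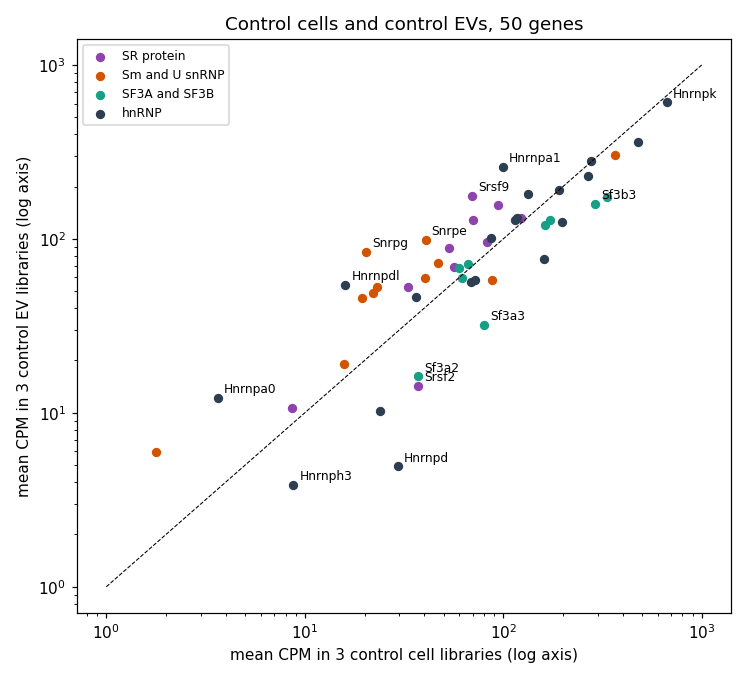
Mean CPM of each of the 50 genes in control cells (x, log axis) and control EVs (y, log axis), n = 3 libraries each, coloured by role, with equality dashed. Most Sm and U snRNP genes lie above the line, Hnrnpa1 (99.3 and 260 CPM) and Hnrnpdl (16 and 54.3 CPM) passed the test, and Sf3a3 lies below it (79.8 and 32 CPM).

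Hnrnpa1 stood at 94, 106 and 97.6 CPM in control cells and at 186, 354 and 238 CPM in control EVs. The lowest EV library was above every cell library, with a 2.63-fold difference (log2 1.39, SE 0.29, edgeR adjusted p = 0.0395). Hnrnpdl, a paralogue of Hnrnpd, was at 15.6, 17.2 and 15.2 CPM in cells and 44, 56.6 and 62.2 CPM in EVs (3.40-fold, log2 1.77, SE 0.38, edgeR adjusted p = 0.0412). Both groups were apart, but each call was lost in 5 of 11 other settings, among them the removal of any single control cell library. Without the first EV library 7 genes were higher and 6 lower, and without the second 4 were higher and 1 lower. Without the third 2 were higher and 2 lower.

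The Sm and U snRNP genes had a median log2 difference of 1.17 between control EVs and cells, and 5 of the 11 were higher in every EV library. Snrpg was at 21.7, 22.6 and 16.9 CPM in cells and at 38.4, 109 and 105 CPM in EVs. The groups did not overlap, but the first EV library was far below the others and the test was not passed (log2 2.06, SE 0.51, edgeR adjusted p = 0.0678). Snrpe, with 36.4 to 44.5 CPM in cells, was at 37.2, 128 and 131 CPM in EVs, where the first library was at the cell level (log2 1.30, SE 0.54, edgeR adjusted p = 0.251). Sf3a3 differed the other way, with 78.5 to 81.3 CPM in cells and 25.7, 40.7 and 29.5 CPM in EVs (log2 -1.31, SE 0.31, edgeR adjusted p = 0.0586). Per kilobase of exon Snrpb ranked first of the 50 in EVs (154 CPM per kb) as in cells. Srsf9 was at 107 CPM per kb in control EVs and 42.2 in control cells, and Hnrnpa1 at 82.5 and 31.5.

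EV libraries of a group differed widely. In control EVs 5 of the 50 genes had a highest library at least 10 times the lowest, with the lowest raised to 3 counts, and 41.4% of genes with a mean of 50 counts did so. The numbers were 7 genes in IL-10 EVs (35.4% of such genes), 16 in TGFB EVs (41%), 0 in LPS EVs (6.2%), and 0 of the 50 in every cell group. Sf3b3 shows the pattern: control EVs had 245, 231 and 0 CPM, while control cells had 286 to 294 CPM. In the first TGFB EV library 7 of the 50 genes were at 0 and Hnrnpk was at 27.4 CPM, against 568 and 218 CPM in the other libraries of its group. That library had no count for 50% of the listed genes.

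**Figure D5:**
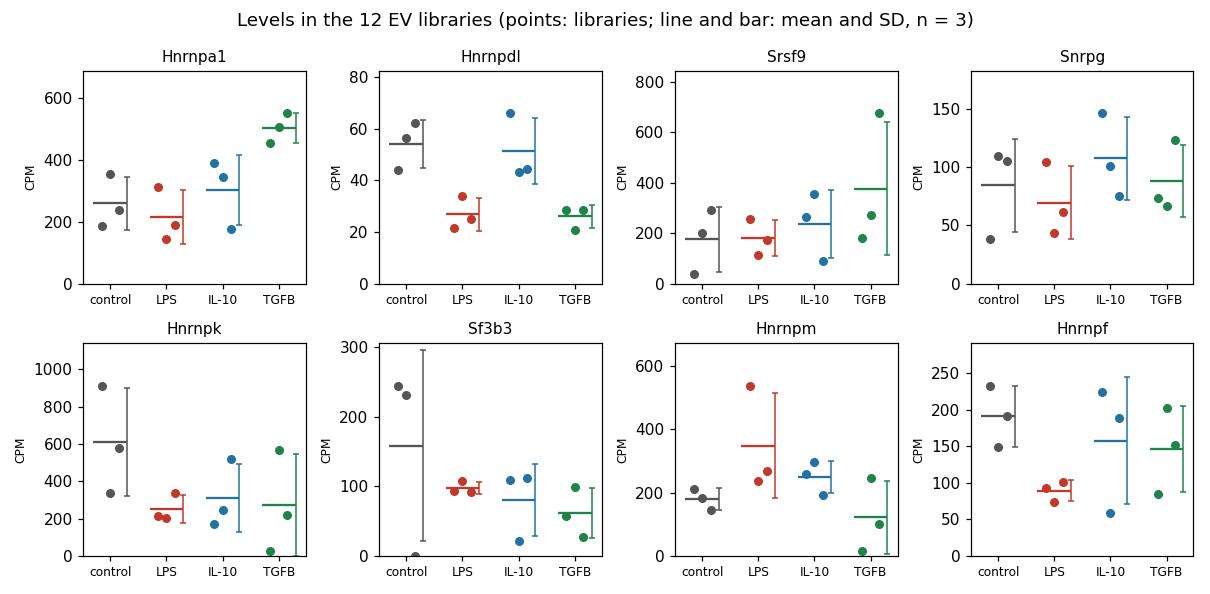
Levels (CPM, axes from 0) of 8 of the genes in the 12 EV libraries. Points are libraries, and line and bar are the mean and SD of 3. Most groups overlap, with Hnrnpa1 at 455 to 551 CPM after TGFB and at 186 to 354 CPM in controls, and Hnrnpf at 73.1 to 101 CPM after LPS and at 149 to 233 CPM in controls.

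In EVs, LPS gave no call among these genes, with 0 of the 50 higher and 0 lower by edgeR, where 13.9% of 12216 tested genes were higher and 0.237% lower. At an unadjusted p under 0.05 there were 3 genes, and DESeq2 called 4 higher. The median log2 fold change was -0.08 for the 50 genes and 0.33 for all genes tested. By library size that median moved by log2 0.22 and 1 gene was called higher, where 1724 of the 12216 tested genes were. LPS EV libraries were all above the controls in 4 genes and all below in 7, where this held for 24.3% and 7.78% of all genes tested. LPS EVs also held counts for 113 to 116 of the 116 genes that were at 0 in every cell library, against 6 to 20 in the other EV libraries, and the part of this in the values for the 50 genes was not tested. The 3 lowest p-values were those of Sf3a3, Hnrnpm and Hnrnpab. Sf3a3 went from 25.7, 40.7 and 29.5 CPM to 129, 53.1 and 93.8 CPM (log2 1.74, SE 0.55, edgeR adjusted p = 0.0913). Hnrnpm went from 212, 183 and 144 CPM to 539, 238 and 269 CPM (log2 1.18, edgeR adjusted p = 0.194), and Hnrnpab from 147, 99.7 and 128 CPM to 280, 154 and 201 CPM (log2 0.97, edgeR adjusted p = 0.247). In each the LPS libraries were above all controls without passing the test.

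IL-10 EVs gave 0 genes higher and 0 lower of the 50 by edgeR, as over all 8992 tested genes, where 0% were higher and 0% lower. None of the 50 had an unadjusted p under 0.05, a count of 0, and DESeq2 also called 0. IL-10 libraries were all above the controls in 1 gene and all below in 4, where this held for 4.27% and 5.47% of all genes. The lowest p-values were those of Hnrnpul1, Snrpd3 and Srsf7. Hnrnpul1 was at 27.1, 75.9 and 71.3 CPM in control EVs and at 10.6, 0.717 and 0.108 CPM after IL-10 (log2 -4.06, edgeR adjusted p = 1). Snrpd3 was at 88, 73.5 and 57.2 CPM in controls and at 15.7, 14.8 and 42.1 CPM after IL-10 (log2 -1.59, edgeR adjusted p = 1). Both groups were apart, and neither gene passed the test.

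TGFB EVs likewise gave 0 genes higher and 0 lower by edgeR, where 0% of 9093 tested genes were higher and 0% lower. At an unadjusted p under 0.05 there was 1 gene higher and 1 lower, and DESeq2 called 0. TGFB libraries were all above the controls in 2 genes and all below in 9, where this held for 7.76% and 8.51% of all genes. Hnrnpa1 was at 186, 354 and 238 CPM in control EVs and at 455, 506 and 551 CPM after TGFB. All TGFB libraries were above the controls (log2 1.00, SE 0.39, edgeR adjusted p = 0.999). Hnrnpll went the other way, from 140, 73.3 and 90 CPM to 12.1, 39.7 and 13.3 CPM (log2 -2.21, edgeR adjusted p = 0.999). Hnrnpa2b1, a paralogue of Hnrnpa1 known for sorting small RNAs into vesicles, was at 268, 209 and 364 CPM in controls and at 54.6, 174 and 140 CPM after TGFB (log2 -1.2, edgeR adjusted p = 0.999). Its groups did not overlap, and the lowest value was that of the first TGFB library, where 7 of the 50 genes were at 0.

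The last comparison tested whether a treatment acted differently in EVs and in cells. For LPS, Hnrnpa1 and Hnrnpf were lower and 0 genes higher in the EV effect minus the cell effect, where 14.1% of 13263 tested genes were higher and 2.04% lower (edgeR, adjusted p under 0.05). For higher values 1 gene had an unadjusted p under 0.05 and DESeq2 called 2. Hnrnpa1 rose in cells, from 94 to 106 CPM to 230 to 254 CPM. In EVs it was at 314, 145 and 190 CPM after LPS and at 186, 354 and 238 CPM in controls, and these groups overlapped. The difference of the effects was log2 -1.51 (SE 0.44, edgeR adjusted p = 0.0385). Hnrnpf was at 182, 200 and 187 CPM in control cells and 217, 206 and 190 CPM after LPS, which overlapped. In EVs it was at 233, 149 and 191 CPM in controls and lower in all LPS libraries, at 93.3, 73.1 and 101 CPM, with a difference of log2 -1.19 (SE 0.32, edgeR adjusted p = 0.0272). The median of all genes in this comparison was log2 0.23, and RLE scaling and scaling by library size moved it by 0.26 and 0.31. The 2 values kept their sign in all 17 other settings, but the Hnrnpa1 call was lost in 10 of them and the Hnrnpf call in 9. No gene was called lower when any single cell library or the second LPS EV library was left out, a count of 0, and 1 was without the third. Without the second control EV library 5 genes were lower, and without the third 7 were.

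For IL-10 the same test called 0 genes higher and 0 lower of the 50, where 0.109% of 11930 tested genes were higher and 0.176% lower. There was 1 gene at an unadjusted p under 0.05, and DESeq2 called 0. For TGFB it also called 0 and 0 by edgeR, where 0.134% of 11954 tested genes were higher and 0.176% lower. Here 3 genes had an unadjusted p under 0.05, and DESeq2 called 3 lower. The lowest p was that of Hnrnpll, whose level after TGFB was 102 to 106 CPM in cells, above the controls, and 12.1 to 39.7 CPM in EVs, below the controls (log2 -2.52, edgeR adjusted p = 0.226).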

How the data were processed

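RNA of BV2 cells and their EVs was sequenced on a HiSeq X after SMART-Seq v4 cDNA synthesis, per the labels. The authors deposited raw counts per gene, with a lowest total of 240 for a listed gene. The submitters' processing notes name DESeq2; no aligner or build was found in the sources used here. Repeated control columns were identical and were used once, giving 24 libraries. Column names give the group and a number from 1 to 3, and no label says what the number marks.

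Counts were tested over all genes with edgeR 4.0.16 (filterByExpr, TMM, robust quasi-likelihood fit, Benjamini-Hochberg adjustment, threshold 0.05) in R 4.3.3, using the groups compared, or the 12 cell libraries for treatments against each other. The procedure was run on data simulated for LPS against control in cells and in EVs. The other comparisons were not simulated, and no recovery rate is given here. CPM were scaled by TMM over 24 libraries. SE is the log2 fold change divided by the root of the F statistic. Depth was 26.14 to 42.13 M counts in cells and 3.019 to 17.98 M in EVs.

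Alternatives were RLE scaling, scaling by library size, no filter, a mean of 50 counts, DESeq2 1.42.0, a fit with the 12 libraries of a compartment, leaving out each library, and the column number as a block. The block and, for treatments, scaling by library size were chosen after seeing the data.

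Genes given in every library were the up to 3 largest rises and falls per role among calls without overlap and with a mean of 50 counts, the 3 lowest p where nothing passed, and calls of EVs against cells and of the interactions. Snrpert, Hnrnpd and Hnrnpk in LPS cells and Snrpg, Snrpe, Sf3a3, Sf3b3 and Hnrnpk in control or TGFB EVs were chosen after their values were seen. The members and lists were chosen with earlier results of these data known. Exon lengths, overlaps and copies came from GENCODE M21 and BLAST 2.17.0.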

Additional observations from a re-analysis of the deposited data

Results flagged for a closer look

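The effect of LPS differed between EVs and cells for 2 of the 50 genes by a test of the difference itself, the interaction of compartment and treatment. Both were lower, where 14.1% of 13263 tested genes were higher and 2.04% lower. For Hnrnpa1 the EV effect was lower than the cell effect by a log2 value of -1.51 (SE 0.44, edgeR adjusted p = 0.0385). For Hnrnpf the value was -1.19 (SE 0.32, edgeR adjusted p = 0.0272). The Hnrnpa1 call was lost in 10 of 17 other settings and the Hnrnpf call in 9, among them the removal of any single cell library. In the LPS EV libraries 113 to 116 of the 116 genes at 0 in every cell library had counts, and the part of this in both values was not tested.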

How the results depend on the processing

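Libraries that share a column number did not consistently deviate from their group means together: correlations ran from -0.23 to 0.37. In 0 of 13 comparisons were all same-number pairs over 0.1 or every library closest to its own number. The highest values were in LPS against TGFB in cells (0.08 to 0.37). There 2 of 3 pairs were over 0.1, and 4 of 6 libraries were closest to their own number. With the column number as a replicate block, TGFB in cells gave 2 lower, EVs against cells 0 higher (edgeR adjusted p = 0.387 for Hnrnpa1 and Hnrnpdl) and the LPS difference between EVs and cells 0 lower (edgeR adjusted p = 0.087 for Hnrnpa1 and 0.0599 for Hnrnpf). The other counts stayed within 1.5 times, and LPS in cells gave 27 higher and 3 lower. Counts of settings in the text leave the block out. The called and named genes of all 13 comparisons were recomputed in 2160 instances: 1983 kept their side of the threshold, 168 lost it, 8 gained it and 1 reversed, Hnrnpul1 in LPS against IL-10 by library size (log2 0.01). The shallowest EV library had 3.019 M counts. In cells, IL-10 gave 0 higher and 20 lower by library size, 3 higher with all 12 libraries in the fit, and 3 to 6 higher and 3 to 8 lower leaving out a library. TGFB gave 5 to 13 higher and 1 to 2 lower leaving out a library, and 2 lower by library size and with DESeq2. LPS against IL-10 gave 38 higher and 1 lower by library size, and 2 to 4 lower leaving out a library (2 without the second IL-10 library). IL-10 against TGFB gave 1 higher and 27 lower by library size. In the comparisons with IL-10 in cells, library size shifted the calls over all genes as well, as given above. In LPS EVs, library size gave 1 higher and DESeq2 4. EVs against cells gave 1 higher with no filter, 0 with a mean of 50 counts, 7 with DESeq2 and 0 to 7 leaving out a library. For lower it gave 1 by library size, 2 with DESeq2 and 0 to 6 leaving out a library. The LPS difference between EVs and cells gave 1 higher with RLE scaling, 1 by library size, 2 with DESeq2 and 0 to 2 leaving out a library. For lower it gave 1 by library size, 0 with a mean of 50 counts, 4 with DESeq2 and 0 to 7 leaving out a library (7 without the third control EV library). The IL-10 difference gave 0 to 1 lower leaving out a library (1 without the first IL-10 EV library). The TGFB difference gave 3 lower with DESeq2 and 0 to 2 leaving out a library (2 without the second TGFB EV library). Where a library or gene filter was removed the fit held fewer libraries or other genes, and for the rest the cause was not tested.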
